A study of Homo sapiens with 12 samples.

Results

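The genes described here encode the eukaryotic translation initiation factors, eIF1 to eIF6, in 2 cancer cell lines treated with myricone C. By a rule that uses no expression value, though set with earlier results of these data known, members were chosen by name. They are the listed genes whose symbol begins with EIF and a digit from 1 to 6. Of 63 such genes, 5 EIF2AK kinases, 3 EIF4EBP genes, 1 Y-linked gene, 2 genes with hyphenated names and 6 pseudogenes were dropped, which left 46 of the 12360 genes listed for either line. The table of SW48 listed all 46 among 11554 genes, and that of the gastric line listed 45 among 11070. EIF5AL1 was the member not listed for the gastric line.

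The series title names myricone C as a neolignan from Myristica fragrans and places it in relation to endoplasmic reticulum stress, apoptosis and inhibition of the kinase ROCK. SW48, an established colorectal adenocarcinoma line, and an established gastric adenocarcinoma line, named in full on the plots and here called the gastric line, are both labelled WT for genotype. Cells of each line were kept in serum-supplemented RPMI-1640 and received 10 µM myricone C or the vehicle, 0.1% DMSO, for 48 h, which gives 4 groups: SW48 with myricone C, SW48 with vehicle, the gastric line with myricone C and the gastric line with vehicle. Each group held 3 libraries labelled as biological replicates, 12 in all, made from total RNA by stranded mRNA sequencing. With 1 line per tissue, a difference between the lines cannot be told apart from a difference between the tissues.

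Initiation of translation brings the ribosome, the initiator tRNA and an mRNA together at a start codon. The eIF2 complex carries the initiator tRNA with GTP, eIF1 and eIF1A hold the small subunit in a scanning state, eIF3 is the large multi-subunit scaffold on that subunit, and the eIF4F complex (cap-binding eIF4E, scaffold eIF4G and helicase eIF4A) recruits the capped mRNA. After eIF5 has triggered GTP hydrolysis on eIF2, eIF5B joins the large subunit, eIF2B recharges eIF2 with GTP, and eIF6 keeps free large subunits apart from small ones. Under stress, kinases phosphorylate the alpha subunit of eIF2, which blocks eIF2B and lowers initiation on most mRNAs, and the 4E-binding proteins (4E-BPs) hold eIF4E away from eIF4G. These factors are often studied in tumour cells because growth signalling acts through eIF4F.

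The deposited values are a normalised expression signal per gene, here called signal, that resembles FPKM or TPM, and read depth is unknown. Listed values summed to 464037 to 536594 per library. On the leading principal component, which separated the treatments in both lines, SW48 myricone C replicate 1 lay nearest to its vehicle group, at 14.4 against 36.5 and 29.1 for the other two, and small RNA genes took 5.28% of its signal. All 5 epithelial markers were listed in both lines, with a summed signal of 2785 to 3956 in SW48 myricone C against 1018 to 1790 in SW48 vehicle, and of 2725 to 3765 in gastric-line myricone C against 7654 to 10248 in gastric-line vehicle. Of the tissue markers, the colorectal genes CDX2 and CDH17 were listed in both lines, and 1 of 6 gastric ones (TFF1) was listed in the gastric line. None of the 4 leukocyte markers was listed in either line, and of 4 mesenchymal and endothelial markers only COL1A1 was listed, in the gastric line. The part of these differences in the results was not tested. In such bulk samples, fewer cells of a kind and less RNA per cell cannot be told apart.

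Initiation factor transcripts moved in both directions under myricone C, and more of them passed the test in the gastric line than in SW48. In SW48, 6 of the 46 members rose and 4 fell at an adjusted p under 0.05 (limma across all genes), and 29.3% of all genes passed in either direction, 10.1% higher and 19.2% lower. Of the 45 members listed in the gastric line, 11 rose and 12 fell, where 46.5% of all genes passed, 23.3% higher and 23.2% lower. The members' shares, 21.7% in SW48 and 51.1% in the gastric line, lie near these backgrounds, so the number of changed members is not a result about initiation factors; which ones moved, and in which direction, is described below. The median log2 change was -0.06 in SW48 (-0.08 over all genes) and 0.05 in the gastric line (0.01 over all genes). With quantile normalisation the split was 12 higher and 2 lower in SW48 and 14 higher and 10 lower in the gastric line, and with median-centred scaling it was 8 higher and 2 lower in SW48. The myricone C and vehicle libraries did not overlap for 19 of 46 members in SW48 (45.3% of all genes) and for 27 of 45 in the gastric line (56.8% of all genes). Changes are given on the log2(signal + 1) scale with limma's standard error, a scale that understates the change of low genes.

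**Figure D1:**
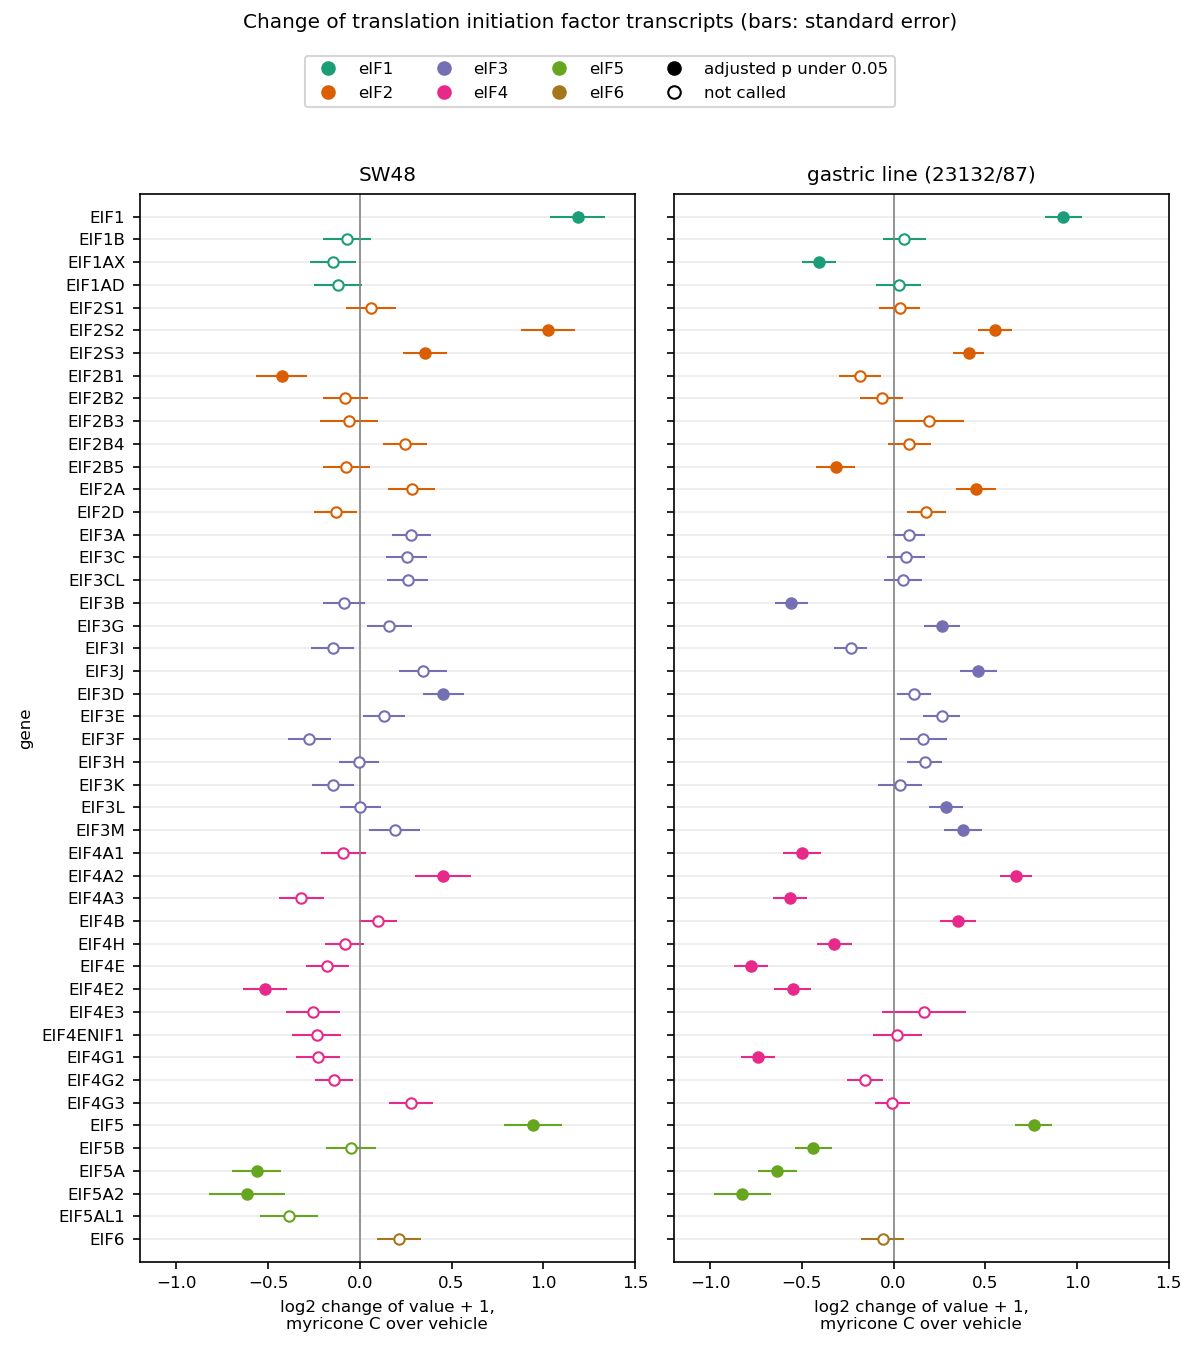
Log2 change in signal, myricone C over vehicle, of each initiation factor gene in SW48 (left panel) and the gastric line (right panel), with limma standard errors as bars and genes grouped from eIF1 to eIF6. Filled points passed an adjusted p of 0.05; EIF1, EIF2S2 and EIF5 lie farthest to the right in SW48, and EIF5A2, EIF4E and EIF4G1 farthest to the left in the gastric line.

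EIF1 (chromosome 17, 41688885 to 41692668, plus strand), whose product keeps the scanning ribosome from settling on a wrong codon, had the largest rise of all members in both lines. In SW48 its signal was 521, 693 and 812 in the myricone C libraries, against 298, 289 and 286 in the vehicle libraries. In the gastric line it was 586, 581 and 662 in the myricone C libraries, against 312, 329 and 318 in the vehicle libraries. Every myricone C library lay above every vehicle library in both lines, and the SW48 myricone C libraries spread widely, replicate 1 being the closest to vehicle. EIF1 rose by 1.19 ± 0.15 in SW48 (limma adjusted p = 0.000323), with means of 675 ± 146 in myricone C and 291 ± 6.14 in vehicle libraries (SD, n = 3 each). For the gastric line the gene rose by 0.93 ± 0.10 (limma adjusted p = 8.65e-05), with means of 609 ± 45.4 and 319.7 ± 8.68 in myricone C and vehicle libraries. The difference between the lines, SW48 minus the gastric line, was 0.26 ± 0.19 (limma adjusted p = 0.379; 95% interval -0.13 to 0.66).

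EIF5 (chromosome 14, 103333544 to 103345025, plus strand) encodes the factor that triggers GTP hydrolysis on eIF2 once a start codon is found. In SW48 its signal was 134, 207 and 166 in the myricone C libraries, against 92.1, 75 and 92.7 in the vehicle libraries. The gastric-line values were 175, 153 and 145 in the myricone C libraries, against 87.2, 93.3 and 96 in the vehicle libraries. Again no library of one treatment reached into the other, and SW48 myricone C replicate 1 was the lowest of its group. EIF5 rose by 0.94 ± 0.16 in SW48 (limma adjusted p = 0.0014) and rose by 0.76 ± 0.10 in the gastric line (limma adjusted p = 0.000256). None of the other eIF1 genes was called higher in either line. EIF1B, a close relative of EIF1, changed by -0.07 ± 0.13 in SW48 and 0.06 ± 0.12 in the gastric line, neither past the threshold. EIF1AX, which encodes the scanning partner eIF1A, changed by -0.15 ± 0.13 in SW48 and fell by 0.40 ± 0.09 on the log2 scale in the gastric line (limma adjusted p = 0.00575), where all 3 myricone C libraries (39.2 to 45.5) lay below all 3 vehicle libraries (55.0 to 56.4). EIF1AD, a protein with an eIF1A-like domain, changed by -0.12 in SW48 and 0.03 in the gastric line, neither called.

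In the eIF2 trimer, transcripts of the beta and gamma subunits rose in both lines while that of the alpha subunit did not pass the test in either. EIF2S2 (chromosome 20, 34088298 to 34112332, minus strand), encoding the beta subunit, read 68.8, 90.9 and 101 in the myricone C libraries, against 43.1, 37.7 and 44.6 in the vehicle libraries of SW48. In gastric cells it read 151, 151 and 155 in the myricone C libraries, against 98.6, 99.7 and 114 in the vehicle libraries. The treatments stood apart in both lines, with SW48 myricone C replicate 1 again the lowest of its group. EIF2S2 rose by 1.02 ± 0.15 in SW48 (limma adjusted p = 0.000662) and rose by 0.55 ± 0.09 in the gastric line (limma adjusted p = 0.00107), or 2.08-fold and 1.47-fold as ratios of means. The difference between lines, 0.47 ± 0.18, missed the threshold (limma adjusted p = 0.0949) and passed it without SW48 myricone C replicate 1, at 0.63. EIF2S3, the GTP-binding gamma subunit, rose by 0.36 ± 0.12 in SW48 (limma adjusted p = 0.045) and rose by 0.41 ± 0.08 in the gastric line (limma adjusted p = 0.0032). The SW48 call of EIF2S3 was lost when any library other than myricone C replicate 1 was left out: it was 0.37 without myricone C replicate 2, 0.27 without replicate 3, and 0.29, 0.41 and 0.37 without vehicle replicates 1, 2 and 3.

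EIF2S1 (chromosome 14, 67359997 to 67386516, plus strand) encodes the alpha subunit, the one phosphorylated under stress. In SW48 its signal was 45.5, 52.3 and 42.1 in the myricone C libraries, against 44.4, 38.3 and 51.7 in the vehicle libraries. Its values in the gastric line were 46, 36.2 and 40.6 in the myricone C libraries, against 38.5, 37.6 and 43.6 in the vehicle libraries. The treatments overlapped in both lines. Its change was 0.06 ± 0.14 in SW48 (95% interval -0.24 to 0.36) and 0.03 ± 0.11 in the gastric line (95% interval -0.22 to 0.28), so a change of the size seen for EIF2S2 lies outside both intervals. Phosphorylation of the protein is not read by these data.

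Genes of eIF2B, the exchange factor that recharges eIF2, mostly missed the threshold. EIF2B5 (chromosome 3, 184135038 to 184146112, plus strand), the catalytic epsilon subunit, read 30.6, 28.2 and 32.6 in the myricone C libraries, against 33.8, 27.4 and 35.5 in the vehicle libraries of SW48. Across the gastric libraries it read 33.1, 29.4 and 32.3 in the myricone C libraries, against 39.2, 43.9 and 35.9 in the vehicle libraries. The treatments overlapped in SW48 and did not in the gastric line. EIF2B5 changed by -0.07 ± 0.13 in SW48 and fell by 0.32 ± 0.11 on the log2 scale in the gastric line (limma adjusted p = 0.0329). The gastric-line call of EIF2B5 was lost without myricone C replicate 2 (-0.27) or 3 (-0.33), without vehicle replicate 1 (-0.32) or 2 (-0.24), and with quantile normalisation (-0.26). EIF2B1, the regulatory alpha subunit, was the only eIF2B gene called in SW48. Its signal there was 24.2, 23.5 and 18.5 in the myricone C libraries, against 29.1, 27 and 33.7 in the vehicle libraries, so the treatments did not overlap, and it fell by 0.43 ± 0.14 on the log2 scale (limma adjusted p = 0.0406). That call was lost without myricone C replicate 2 (-0.47) or 3 (-0.31), without vehicle replicate 1 (-0.44) or 3 (-0.34), with quantile normalisation (-0.34) and with median-centred scaling (-0.38). EIF2B1 in the gastric line read 17.4, 20.4 and 21.6 in the myricone C libraries, against 22.1, 24.6 and 21 in the vehicle libraries, with overlap, and changed by -0.18 ± 0.12. EIF2B2, EIF2B3 and EIF2B4 were called in neither line, at -0.08, -0.06 and 0.25 in SW48 and -0.07, 0.19 and 0.09 in the gastric line. Outside the trimer, EIF2A and EIF2D encode factors that can deliver initiator tRNA without eIF2. EIF2A changed by 0.28 ± 0.13 in SW48, a value past the threshold without myricone C replicate 1 (0.40), and rose by 0.45 ± 0.11 in the gastric line (limma adjusted p = 0.00803). EIF2D changed by -0.13 in SW48 and 0.18 in the gastric line, neither called.

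The 14 eIF3 genes did not move as one. In SW48 1 rose, none fell and 13 were not called (median log2 change 0.15), a share of 7.14% against 29.3% of all genes. In the gastric line 4 rose, 1 fell and 9 were not called (median 0.14), a share of 35.7% against 46.5% of all genes. EIF3D (chromosome 22, 36510850 to 36529436, minus strand), a peripheral subunit known to bind the cap of some mRNAs, was the gene that rose in SW48. Its signal there was 171, 190.1 and 210.2 in the myricone C libraries, against 140.1, 131 and 143 in the vehicle libraries. For the gastric line it was 126, 139 and 127 in the myricone C libraries, against 128, 118 and 118 in the vehicle libraries. The treatments stood apart in SW48 and overlapped in the gastric line. EIF3D rose by 0.46 ± 0.11 in SW48 (limma adjusted p = 0.0109) and changed by 0.11 ± 0.09 in the gastric line. The difference between lines was 0.35 ± 0.14 and missed the threshold (limma adjusted p = 0.111), so the change is not shown to be limited to SW48.

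EIF3B (chromosome 7, 2354086 to 2380745, plus strand), a core subunit on which others assemble, was the eIF3 gene that fell in the gastric line. Its signal in SW48 was 136, 146 and 149 in the myricone C libraries, against 167, 133 and 158 in the vehicle libraries. The values in gastric cells were 67.5, 70.8 and 74.6 in the myricone C libraries, against 103, 109 and 102 in the vehicle libraries. In SW48 vehicle replicate 2 lay at the level of the treated cells, whereas all gastric-line myricone C libraries lay below all vehicle libraries of that line. EIF3B changed by -0.09 ± 0.12 in SW48 (limma adjusted p = 0.621) and fell by 0.56 ± 0.09 on the log2 scale in the gastric line (limma adjusted p = 0.000735). The subunits that rose in the gastric line were EIF3J by 0.46 ± 0.10 (loosely bound, limma adjusted p = 0.00396), EIF3M by 0.38 ± 0.10 (limma adjusted p = 0.0125), EIF3L by 0.29 ± 0.09 (limma adjusted p = 0.0307) and EIF3G by 0.26 ± 0.10 (limma adjusted p = 0.0484). The calls of EIF3G and EIF3L were weak. Leaving out any gastric-line library other than myricone C replicate 1 ended them, with EIF3G at 0.23 and 0.25 without myricone C replicates 2 and 3 and at 0.30, 0.28 and 0.20 without vehicle replicates 1, 2 and 3. EIF3L was at 0.23 and 0.31, and at 0.29, 0.32 and 0.25, without the same libraries, and EIF3M lost its call without vehicle replicate 1 (0.30). In SW48 EIF3J changed by 0.35 ± 0.13 and was not called. It passed without myricone C replicate 1 (0.45), with quantile normalisation (0.46), with median-centred scaling (0.39) and in a joint fit of both lines (0.35). EIF3F, whose SW48 libraries did not overlap, changed by -0.28 ± 0.12 in SW48 and 0.16 ± 0.13 in the gastric line, called in neither line.

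Among the other eIF3 genes, which missed the threshold in both lines, the change in the gastric line was 0.26 ± 0.10 for EIF3E and -0.23 ± 0.09 for EIF3I, both with separate treatment groups and with adjusted p-values of 0.0535 and 0.0568 (limma). The structural core gene EIF3A changed by 0.28 ± 0.11 in SW48 and 0.08 ± 0.09 in the gastric line, and EIF3H and EIF3K by -0.00 and -0.15 in SW48 and 0.17 and 0.03 in the gastric line. The SW48 groups of EIF3A did not overlap. It was called there with quantile normalisation (0.39), with median-centred scaling (0.33) and in the joint fit (0.28). In the gastric line, quantile normalisation called EIF3E (0.45) and EIF3H (0.33). EIF3C and EIF3CL are near-identical copies whose reads can be split either way. Their signals stood in a ratio of 1.04 to 1.07 in all 12 libraries, so their separate levels are uncertain, and neither was called. In SW48, where their treatment groups did not overlap, both were called with quantile normalisation (0.39 for each). Within a library the signal of EIF3E over that of EIF3B, a pair chosen after the values were seen, does not depend on how libraries are scaled. It was 2.22, 2.1 and 2.23 in the myricone C libraries, against 1.5, 2.2 and 2 in the vehicle libraries of SW48. In the gastric line it was 6.44, 5.97 and 5.99 in the myricone C libraries, against 3.37, 3.19 and 3.84 in the vehicle libraries. The treatments overlapped in SW48 and stood far apart in the gastric line.

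Many of the eIF4 genes act in bringing mRNA to the ribosome. EIF4A3, EIF4E2 and EIF4ENIF1, counted with them by name, have other roles that are given below. In SW48 1 of 12 rose, 1 fell and 10 were not called, with a median log2 change of -0.16, where 29.3% of all genes passed. The counts in the gastric line were 2 higher, 6 lower and 4 not called, with a median of -0.24, where 23.3% of all genes passed as higher and 23.2% as lower. EIF4A3 and EIF4E2 were among the 6 lower. EIF4E (chromosome 4, 98871684 to 98930637, minus strand) encodes the protein that binds the mRNA cap. In SW48 its signal was 62.7, 67.2 and 62.6 in the myricone C libraries, against 75, 63.8 and 80.2 in the vehicle libraries. The gastric-line values were 43.8, 48 and 50.2 in the myricone C libraries, against 83.2, 83.7 and 78.4 in the vehicle libraries. In SW48 vehicle replicate 2 lay among the myricone C libraries, and in the gastric line the treatments stood far apart. The change of EIF4E in SW48 was -0.18 ± 0.12 (limma adjusted p = 0.28; 95% interval -0.44 to 0.08). EIF4E fell by 0.78 ± 0.09 on the log2 scale in the gastric line (limma adjusted p = 0.000137), to 0.579 of the vehicle mean.

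EIF4G1 (chromosome 3, 184314495 to 184335358, plus strand) encodes the main scaffold that joins eIF4E, the helicase eIF4A and eIF3. Its signal in SW48 was 139, 133 and 131 in the myricone C libraries, against 181, 137 and 158 in the vehicle libraries. In gastric cells it was 102, 100.2 and 99 in the myricone C libraries, against 167, 181 and 156 in the vehicle libraries. The picture was that of EIF4E, with SW48 vehicle replicate 2 inside the range of the treated libraries and clear separation in the gastric line. EIF4G1 changed by -0.23 ± 0.12 in SW48 (limma adjusted p = 0.174) and fell by 0.74 ± 0.09 on the log2 scale in the gastric line (limma adjusted p = 0.000191). The related scaffolds did not pass the test: EIF4G2, which lacks the eIF4E-binding region, changed by -0.14 in SW48 and -0.15 in the gastric line, and EIF4G3 by 0.28 in SW48 and -0.01 in the gastric line.

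The promoters of EIF4E and EIF4G1, the members with the largest differences between the lines, both hold 2 copies of the E-box CACGTG. They are shown from 250 bases before to 50 bases after the transcription start, from RefSeq on GRCh38.p14, 5′ to 3′ on the gene's strand, with CACGTG in capitals. The first lies at chr4:98929084-98929383 on the minus strand and the second at chr3:184314356-184314655 on the plus strand.
EIF4E: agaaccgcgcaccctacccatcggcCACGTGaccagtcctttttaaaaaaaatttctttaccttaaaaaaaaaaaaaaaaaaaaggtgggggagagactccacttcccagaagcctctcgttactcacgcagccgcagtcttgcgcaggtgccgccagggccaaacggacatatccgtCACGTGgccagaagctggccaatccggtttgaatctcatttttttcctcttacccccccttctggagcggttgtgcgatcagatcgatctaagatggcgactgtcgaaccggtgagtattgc
EIF4G1: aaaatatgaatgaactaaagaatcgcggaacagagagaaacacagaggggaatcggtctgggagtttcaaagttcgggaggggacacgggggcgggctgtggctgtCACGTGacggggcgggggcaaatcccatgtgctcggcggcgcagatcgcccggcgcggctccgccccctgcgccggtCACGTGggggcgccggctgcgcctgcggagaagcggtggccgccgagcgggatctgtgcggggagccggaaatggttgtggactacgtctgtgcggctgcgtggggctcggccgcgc

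The copies begin at positions -225 and -72 from the start of EIF4E and at -144 and -67 from that of EIF4G1, in 1 of the 3 starts that RefSeq gives for EIF4G1. Of the 46 members, 39 had a promoter in the table. CACGTG, the same on both strands, occurred in that of 10 members: EIF1B, EIF2B3, EIF3F, EIF3K, EIF4A3, EIF4B, EIF4E, EIF4G1, EIF4H and EIF5A2. The promoter of EIF5A2 also held more than 1 copy, at -187 and at -162. The difference between the lines for EIF5A2, 0.21 ± 0.27, was not called. Counted by start, CACGTG was in 10 of 54 member promoters and in 7.26% of the 35116 promoters of the table. Of members with an entry, it was found for 5 of 12 that fell in the gastric line, 1 of 8 that rose and 4 of 18 not called there. The letters TGATGNAA, the core of an element bound by CCAAT-enhancer and ATF factors, searched on both strands, occurred in 1 of 54 member promoters, that of EIF4E3, and in 3.62% of all promoters. The promoter of EIF3B held neither. A match is a description of the letters in these windows and not a bound site.

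In the gastric line the helicase genes of eIF4F moved in opposite directions. EIF4A1 (chromosome 17, 7572706 to 7579005, plus strand), the main helicase of eIF4F, read 394, 461 and 411 in the myricone C libraries, against 478, 386 and 488 in the vehicle libraries of SW48. Its values in the gastric line were 318, 377 and 368 in the myricone C libraries, against 487, 513 and 502 in the vehicle libraries. The treatments were mixed in SW48 and apart in the gastric line. EIF4A1 changed by -0.09 ± 0.12 in SW48 and fell by 0.50 ± 0.10 on the log2 scale in the gastric line (limma adjusted p = 0.00358), a difference of 0.41 ± 0.16 that missed the threshold (limma adjusted p = 0.104). EIF4A2 (chromosome 3, 186783205 to 186789900, plus strand), its close relative, read 153, 209.9 and 213 in the myricone C libraries, against 117, 157 and 144 in the vehicle libraries of SW48. Across the gastric libraries it read 191, 189 and 178 in the myricone C libraries, against 114, 117 and 119 in the vehicle libraries. SW48 myricone C replicate 1 fell inside the vehicle range, and the gastric-line treatments did not overlap. EIF4A2 rose by 0.45 ± 0.15 in SW48 (limma adjusted p = 0.0455) and rose by 0.67 ± 0.09 in the gastric line (limma adjusted p = 0.000236). Its SW48 call was lost without myricone C replicate 2 (0.38) or 3 (0.37) and without vehicle replicate 1 (0.33) or 3 (0.48). Within a library, the signal of EIF4A2 over that of EIF4A1 was 0.389, 0.455 and 0.517 in the myricone C libraries, against 0.245, 0.407 and 0.296 in the vehicle libraries of SW48, with vehicle replicate 2 above the lowest treated library. For the gastric line it was 0.601, 0.5 and 0.483 in the myricone C libraries, against 0.233, 0.228 and 0.238 in the vehicle libraries, well apart. Both genes host small nucleolar RNAs, and EIF4A1 shares exons with the read-through gene SENP3-EIF4A1, so their levels carry that uncertainty.

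EIF4A3, a helicase of the exon junction complex rather than of initiation, changed by -0.32 ± 0.12 in SW48 (limma adjusted p = 0.068), with separate groups, and fell by 0.56 ± 0.09 on the log2 scale in the gastric line (limma adjusted p = 0.000826). The helicase cofactors split in the gastric line: EIF4B rose by 0.35 ± 0.10 (limma adjusted p = 0.0162) and EIF4H fell by 0.32 ± 0.09 on the log2 scale (limma adjusted p = 0.0187). EIF4B lost its call without myricone C replicate 2 (0.33) or 3 (0.30) or vehicle replicate 2 (0.34). EIF4H lost its call without vehicle replicate 1 (-0.31) or 2 (-0.29) and with quantile normalisation (-0.14). In SW48 they changed by 0.10 ± 0.10 and -0.08 ± 0.11, neither called. EIF4E2, a cap-binding relative of eIF4E known as a repressor of translation, fell in both lines. Its signal was 26.8, 28.2 and 28 in the myricone C libraries, against 45.4, 35.8 and 39.5 in the vehicle libraries of SW48. The values in gastric cells were 38.5, 35 and 42.5 in the myricone C libraries, against 59.6, 54.6 and 56.8 in the vehicle libraries. No library of either line broke the separation. EIF4E2 fell by 0.52 ± 0.12 on the log2 scale in SW48 (limma adjusted p = 0.00857) and fell by 0.55 ± 0.10 in the gastric line (limma adjusted p = 0.00166). EIF4E3, another relative, and EIF4ENIF1, which carries eIF4E into the nucleus, were not called, at -0.25 and -0.24 in SW48 and 0.17 and 0.02 in the gastric line.

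**Figure D2:**
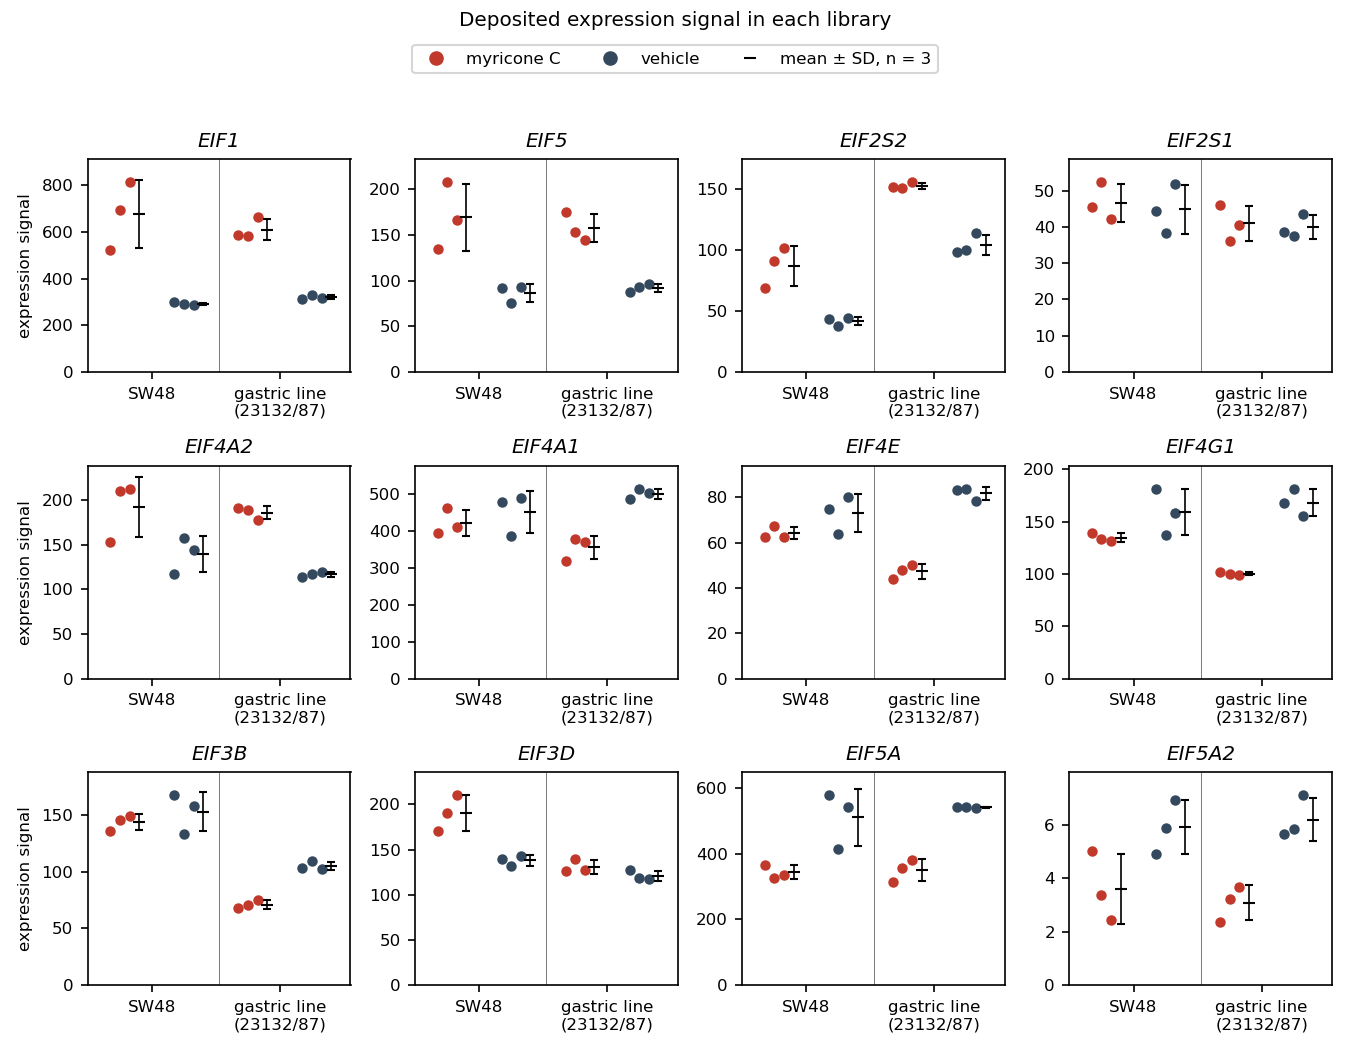
Deposited expression signal of 12 initiation factor genes in each library of SW48 and the gastric line, myricone C in red and vehicle in dark blue, with the mean ± SD of 3 libraries as a bar beside the points. EIF1, EIF5 and EIF2S2 stand apart by treatment in both lines, whereas EIF4E, EIF4G1 and EIF3B stand apart in the gastric line and overlap in SW48.

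The hypusine-containing factor eIF5A, which helps ribosomes through difficult sequences and at termination, was lower at the transcript level in both lines. EIF5A (chromosome 17, 7306999 to 7312463, plus strand) read 366, 325 and 336 in the myricone C libraries, against 577, 413 and 542 in the vehicle libraries of SW48. In the gastric line it read 314, 355 and 379.5 in the myricone C libraries, against 541, 543 and 538 in the vehicle libraries. Every treated library lay below every vehicle library of its line. EIF5A fell by 0.56 ± 0.13 on the log2 scale in SW48 (limma adjusted p = 0.00977) and fell by 0.63 ± 0.11 in the gastric line (limma adjusted p = 0.000988), to 0.671 and 0.646 of the vehicle mean. Its relative EIF5A2 was low throughout, with 5.03, 3.39 and 2.42 in the myricone C libraries, against 4.91, 5.91 and 6.96 in the vehicle libraries of SW48. The gastric-line values were 2.37, 3.23 and 3.67 in the myricone C libraries, against 5.67, 5.84 and 7.12 in the vehicle libraries. In SW48 myricone C replicate 1 lay just above the lowest vehicle library, and the treatments were apart in the gastric line. EIF5A2 fell by 0.61 ± 0.21 on the log2 scale in SW48 (limma adjusted p = 0.044) and fell by 0.83 ± 0.16 in the gastric line (limma adjusted p = 0.00199). The SW48 call was lost without myricone C replicate 2 (-0.60) or 3 (-0.42) or vehicle replicate 2 (-0.61) or 3 (-0.51), with quantile normalisation (-0.54) and with median-centred scaling (-0.57). EIF5AL1, a near copy of EIF5A listed in SW48 alone, changed by -0.39 ± 0.16 there (limma adjusted p = 0.0881), and its reads may belong in part to EIF5A.

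EIF5B, the GTPase that joins the large ribosomal subunit, changed by -0.05 ± 0.14 in SW48 and fell by 0.44 ± 0.10 on the log2 scale in the gastric line (limma adjusted p = 0.00576), where the treated libraries (23.7 to 28.6) lay below the vehicle libraries (34.7 to 35.6). EIF6, which keeps free large subunits from joining, was not called in either line, at 0.21 ± 0.12 in SW48 and -0.06 ± 0.12 in the gastric line. Its SW48 groups did not overlap, and it was called there with quantile normalisation (0.34). Opposite-strand genes overlap several of these loci, among them RALY at EIF2S2, RFC4 at EIF4A2, GPS2 at EIF5A and SNX8 at EIF3B. The strand setting of the authors' counting is not given in the sources used here, so reads of such pairs may be mixed.

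Set side by side, 8 of the 45 members listed in both lines were called in the same direction in both, which is 17.8% of members against 19.2% of all shared genes. They were EIF1, EIF2S2, EIF2S3, EIF4A2 and EIF5, which rose, and EIF4E2, EIF5A and EIF5A2, which fell. These 8 make up 80% of the SW48 calls and 34.8% of the gastric-line calls among members. No member was called in opposite directions, and 0.935% of all shared genes were. A further 2 members were called in SW48 alone (EIF3D and EIF2B1), 15 in the gastric line alone and 20 in neither, which by itself shows no difference between the lines. Across the 45 members the changes in the lines had a Pearson r of 0.77 and a Spearman rho of 0.73, given as a description because members share the same libraries. Over all shared genes they were 0.63 and 0.61. The sign was the same for 34 members, 75.6%, against 70.8% of all shared genes.

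The difference itself passed the test for 3 of 45 members, EIF4E, EIF4G1 and EIF3B, each with a change more positive in SW48 than in the gastric line. Over all shared genes 12.7% passed, 5.33% more positive and 7.39% more negative in SW48, so the members' share of 6.67% is not above the background. The median difference was 0.03 over members and -0.09 over all shared genes. For EIF4E the difference was 0.60 ± 0.14 (limma adjusted p = 0.0141), from -0.18 in SW48 and -0.78 in the gastric line, and it passed the threshold whichever library was left out. For EIF4G1 it was 0.51 ± 0.15 (limma adjusted p = 0.0357), and the call was lost without SW48 myricone C replicate 1 (0.48), 2 (0.52) or 3 (0.53), SW48 vehicle replicate 2 (0.41) or 3 (0.51), gastric-line myricone C replicate 2 (0.51) or 3 (0.50), or gastric-line vehicle replicate 1 (0.51) or 2 (0.45). For EIF3B it was 0.47 ± 0.14 (limma adjusted p = 0.0389), and the call was lost without SW48 myricone C replicate 2 (0.46) or 3 (0.44), SW48 vehicle replicate 2 (0.38) or 3 (0.50), gastric-line myricone C replicate 1 (0.44) or 2 (0.47), or gastric-line vehicle replicate 1 (0.48), 2 (0.44) or 3 (0.49). Over all the libraries left out in turn, EIF4G1 ranged from 0.41 to 0.61 and EIF3B from 0.38 to 0.54. Among the members that missed the threshold, the largest differences were those of EIF2S2 at 0.47, the same size as that of EIF3B, and EIF3F at -0.44, which passed without gastric-line myricone C replicate 1 (-0.58).

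**Figure D3:**
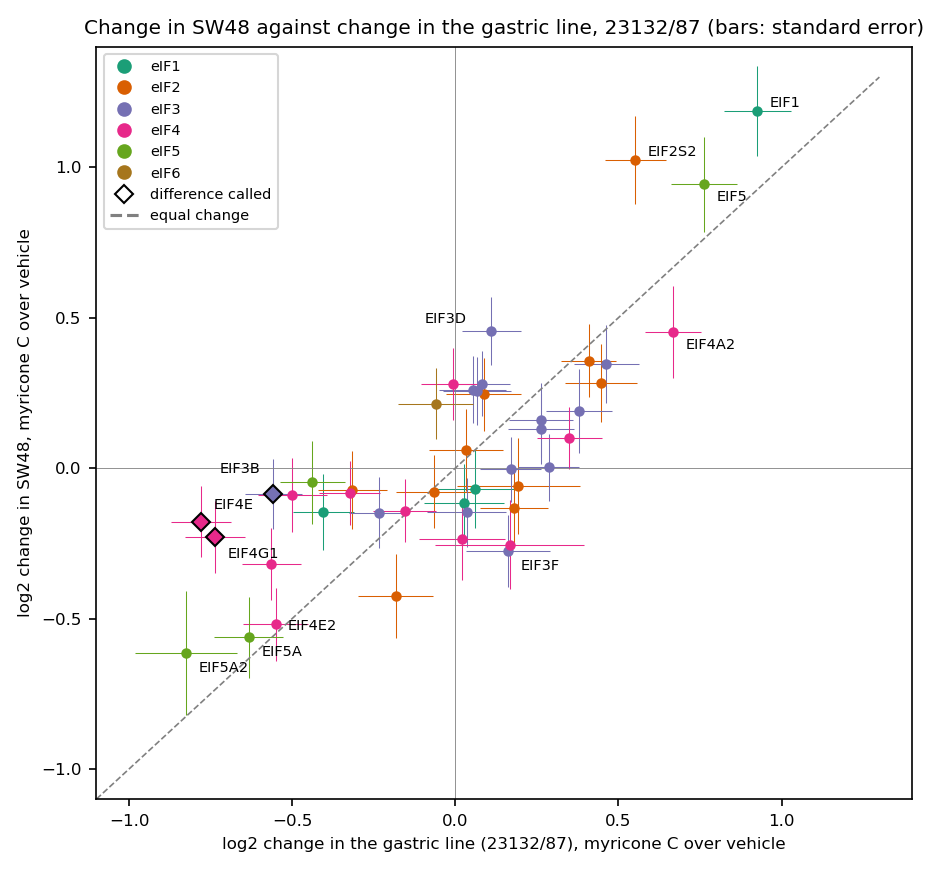
Log2 change in SW48 (vertical axis) against that in the gastric line (horizontal axis), myricone C over vehicle, for the 45 initiation factor genes listed in both lines, coloured by factor, with standard errors as bars and the line of equal change dashed. The diamonds are EIF4E, EIF4G1 and EIF3B, whose difference passed the test, and all lie to the left of the zero line of the gastric line and above the dashed line.

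Genes outside the members were counted from 5 lists of regulators and partners of these factors, other translation factors and exon junction genes. The background was 29.3% of all genes called in SW48 (10.1% higher, 19.2% lower) and 46.5% in the gastric line (23.3% higher, 23.2% lower). Of 9 listed eIF2 kinases and phosphatase subunits, 3 rose and 1 fell in SW48 and 3 rose and 2 fell in the gastric line. PPP1R15A, which directs phosphatase to the alpha subunit of eIF2, rose by 2.04 ± 0.25 in SW48 and 2.83 ± 0.20 in the gastric line. EIF2AK3, the endoplasmic reticulum stress kinase of eIF2, rose by 0.84 ± 0.16 and 1.33 ± 0.17 in those lines, while EIF2S1 itself was not called. Of the other called genes of this list, PPP1R15B rose by 0.70 ± 0.15 in SW48 and 0.47 ± 0.12 in the gastric line. PPP1CA fell in both lines, at -0.70 ± 0.11 in SW48 and -0.72 ± 0.13 in the gastric line. PPP1CC, at -0.18 ± 0.12 in SW48, was called lower in the gastric line alone, at -0.32 ± 0.10. Of the 4E-BPs and cap or poly(A) partners, 3 of 12 rose and 2 fell in SW48 and 5 of 13 rose and 3 fell in the gastric line. MKNK2, a kinase of eIF4E, rose by 1.34 ± 0.17 in SW48 and 0.85 ± 0.14 in the gastric line, and the difference missed the threshold (limma adjusted p = 0.207) except without SW48 myricone C replicate 1 (0.71). MKNK1, the other listed MKNK gene, was called lower in both lines, at -0.63 ± 0.14 in SW48 and -0.45 ± 0.12 in the gastric line. EIF4EBP3, a 4E-BP, changed by 0.52 ± 0.19 in SW48, called only without myricone C replicate 1 (0.65), with quantile normalisation (0.57) or with median-centred scaling (0.57), and rose by 2.05 ± 0.18 in the gastric line, a difference of -1.53 ± 0.29 (limma adjusted p = 0.00378). EIF4EBP1, whose product holds eIF4E away from eIF4G, read 93.3, 105 and 146 in the myricone C libraries, against 71.9, 55.1 and 63.1 in the vehicle libraries of SW48. In gastric cells it read 124, 148 and 144 in the myricone C libraries, against 42.8, 46.5 and 44.7 in the vehicle libraries. The treatments were apart in both lines. EIF4EBP1 rose by 0.83 ± 0.17 in SW48 and 1.61 ± 0.10 in the gastric line, a difference of -0.78 ± 0.21 (SW48 minus the gastric line, limma adjusted p = 0.0234) that lost its call without gastric-line myricone C replicate 2 (-0.74), gastric-line vehicle replicate 1 (-0.75) or SW48 myricone C replicate 2 (-0.73). EIF4EBP2, a further 4E-BP, fell in both lines, by 0.62 on the log2 scale in SW48 and 0.55 in the gastric line. PDCD4 changed by 0.33 ± 0.13 in SW48, not called, and by -0.45 ± 0.09 in the gastric line, called lower. Its difference between lines was 0.78 ± 0.15 (limma adjusted p = 0.00486). LARP1 rose by 0.48 ± 0.12 in SW48 and 0.33 ± 0.09 in the gastric line, and PAIP1 rose in the gastric line alone, by 0.28 ± 0.10.

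Within a library, the signal of EIF4EBP1 over that of EIF4E was 1.49, 1.56 and 2.33 in the myricone C libraries, against 0.959, 0.863 and 0.787 in the vehicle libraries of SW48. Its values in the gastric line were 2.83, 3.09 and 2.88 in the myricone C libraries, against 0.514, 0.555 and 0.57 in the vehicle libraries. It was above every vehicle library in every treated library of both lines, and the gap was wider in the gastric line. EIF4EBP1 rose by 1.61 there against 0.83 in SW48, and EIF4E changed by -0.78 there against -0.18 in SW48. The signal of EIF1 over that of EIF1B was 16.8, 19.5 and 20.5 in the myricone C libraries, against 8.81, 7.04 and 7.8 in the vehicle libraries of SW48. Across the gastric libraries it was 13.3, 13.9 and 14.1 in the myricone C libraries, against 8.14, 8.36 and 6.29 in the vehicle libraries. The treated libraries again lay above all vehicle libraries in both lines. These pairs were also chosen after the values were seen, and the ratios were not tested.

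**Figure D4:**
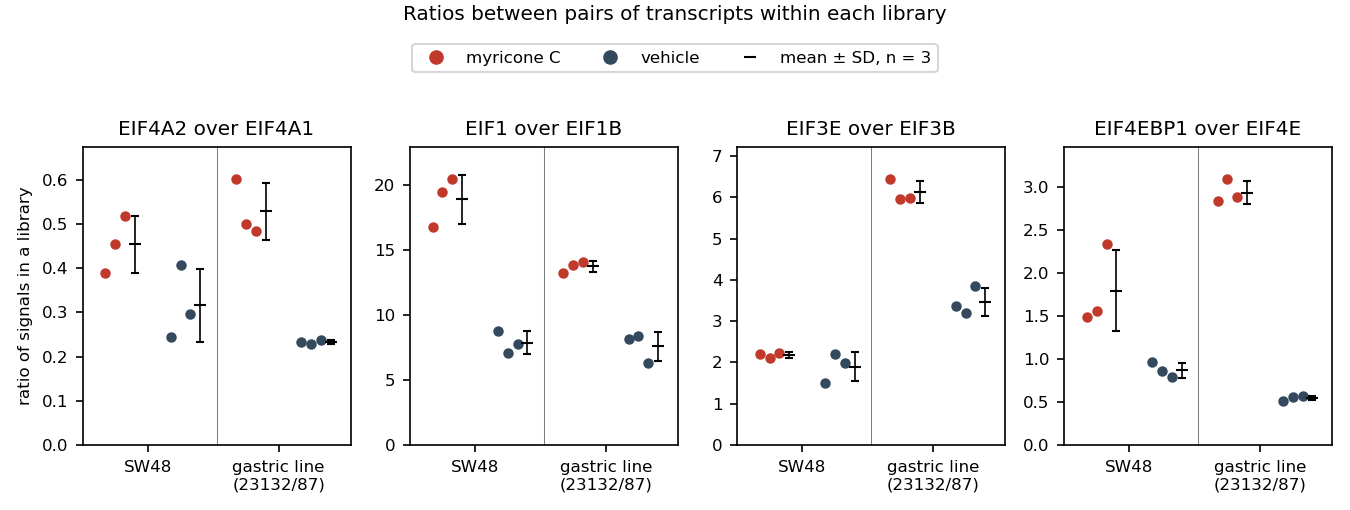
Signal of one gene over that of another in the same library, for 4 pairs, in SW48 and the gastric line, myricone C in red and vehicle in dark blue, each point 1 library and each bar the mean ± SD of 3. The EIF4A2 over EIF4A1 ratio and the EIF3E over EIF3B ratio separate the treatments in the gastric line and overlap in SW48, and the EIF1 over EIF1B and EIF4EBP1 over EIF4E ratios separate them in both lines.

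The 3 remaining lists held other translation factors and exon junction genes. Of 11 other initiation and reinitiation factors, none rose and 1 fell in SW48 and 2 rose and 3 fell in the gastric line. The helicase gene DHX9 fell by 0.51 ± 0.15 on the log2 scale in SW48 and by 1.35 ± 0.09 in the gastric line, a difference of 0.84 ± 0.18 (limma adjusted p = 0.00717). MTIF3, a mitochondrial initiation factor, changed by -0.42 ± 0.15 in SW48, not called, and rose by 0.56 ± 0.11 in the gastric line, a difference of -0.97 ± 0.19 (limma adjusted p = 0.00492). Of 12 elongation and release factors, 1 rose and none fell in SW48 and 1 rose and 2 fell in the gastric line. The rise was that of EEF2, the translocation factor, by 0.36 ± 0.12 in SW48 and 0.54 ± 0.13 in the gastric line, while GSPT1, a release factor, changed by 0.18 ± 0.12 in SW48 and fell by 0.54 ± 0.12 on the log2 scale in the gastric line (difference 0.72 ± 0.17, limma adjusted p = 0.0123). Of 8 exon junction complex partners of EIF4A3, 1 rose and 1 fell in SW48 (MAGOHB by 0.55 ± 0.18 and UPF3A by -0.35 ± 0.12) and 3 rose and 2 fell in the gastric line, where RBM8A fell by 0.50 ± 0.10 and UPF1 by 0.49 ± 0.10 on the log2 scale, against -0.07 and -0.26 in SW48, with no called difference. UPF3A rose by 0.48 ± 0.10 in the gastric line (limma adjusted p = 0.00375), and its difference between lines was -0.83 ± 0.14 (limma adjusted p = 0.002). MAGOHB changed by 0.18 ± 0.13 in the gastric line, not called. In SW48 the calls of MAGOHB, UPF3A, EEF2 and DHX9 were each lost when a single library was left out: MAGOHB at 0.37 without myricone C replicate 2, UPF3A at -0.29 without replicate 1, EEF2 at 0.27 and DHX9 at -0.37 without replicate 3, among others. The difference between lines was called for 0 of 9, 4 of 12, 2 of 11, 1 of 12 and 1 of 8 genes in the order of the lists, against 12.7% of all shared genes.

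Summed over all members, initiation factor signal took 1.04%, 1.19% and 1.17% of the listed signal in SW48 myricone C libraries, against 1%, 0.943% and 1.01% in SW48 vehicle libraries. The share in the gastric line was 1.08%, 1.05% and 1.06% in myricone C, against 0.955%, 0.991% and 0.977% in vehicle libraries. The treated share was the higher one in every library of both lines. The listed signal that it is a share of was lower in every treated library. It was 477551 to 499845 in SW48 myricone C against 509551 to 536594 in SW48 vehicle. For the gastric line it was 464037 to 506021 in myricone C against 518943 to 525838 in vehicle. Without EIF1 the shares were 0.935%, 1.05% and 1.01% in SW48 myricone C, against 0.947%, 0.886% and 0.958% in SW48 vehicle, and 0.956%, 0.93% and 0.925% in gastric-line myricone C, against 0.895%, 0.927% and 0.916% in gastric-line vehicle. Without that gene the treatments overlapped in both lines, though narrowly in the gastric line. As plain signal the sums over all members overlapped between the treatments in both lines. They were 5189.4, 5702.3 and 5864.5 in SW48 myricone C against 5259, 4803.1 and 5428.7 in SW48 vehicle. In the gastric line they were 5023.1, 5258.8 and 5343.9 in myricone C against 5019.7, 5140.7 and 5077.5 in vehicle. The mean sum was 5585 in SW48 myricone C against 5164 in SW48 vehicle and 5209 in gastric-line myricone C against 5079 in gastric-line vehicle. Without EIF1 it was 4599 in gastric-line myricone C against 4760 in gastric-line vehicle, so the direction there turned. By mean signal, a scale whose adjustment for gene length is not settled, EIF1 was the highest member in myricone C cells of both lines, at 675 in SW48 and 609 in the gastric line. EIF5A was the highest in vehicle cells, at 511 in SW48 and 541 in the gastric line. The order of levels between lines was not tested, because each line has its own table.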

How the data were processed

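RNA from 12 libraries of 2 cell lines was sequenced from stranded mRNA libraries (TruSeq Stranded mRNA, per the labels' protocols). Per the submitters' processing notes, FastQC and STAR were used with GRCh38, without versions. How reads were counted, with which strand setting, annotation and unit, is not stated in the labels. The authors deposited 1 table of normalised expression signal per line, each with its own list of genes. Whether the lines were scaled together or apart is not known here. The values resemble FPKM or TPM, are not counts and show no whole-read steps, so depth cannot be given.

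Values were analysed as log2(signal + 1) with limma 3.58.1 in R 4.3.3, with a mean-variance trend, Benjamini-Hochberg adjustment over all genes and a threshold of adjusted p under 0.05, for genes averaging at least 1. Each line was fitted on its 6 libraries without covariates, and the difference between lines, SW48 change minus change in the gastric line, was the line-by-treatment term over 12 libraries and the 10264 genes in both tables. The test planned for counts did not apply. Scripts were tested on simulated data.

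Alternatives were quantile normalisation, median-centred scaling, limma without the trend, pseudocounts of 0.1 and 5, no filter, a filter of at least 10 in at least 3 libraries, a joint fit of both lines, a block for the replicate number and each library left out in turn. The sum without EIF1 was added after seeing the data. Members, lists and promoter motifs were chosen with earlier results of these data known. Values per library are given for the 4 largest rises and falls past the threshold in each line, the largest differences between lines, and always for EIF2S1, EIF2B5, EIF4E, EIF4G1, EIF4A1 and EIF5A. For each pathway list, the 2 genes with the largest change past the threshold in each line are named. EIF4A2 in SW48, EIF4EBP2, MKNK1, PDCD4, LARP1, PAIP1, PPP1R15B, PPP1CA, PPP1CC, the library values of EIF4EBP1 and the ratios were added after their values were seen. Gene positions were taken by Ensembl identifier from GENCODE release 29 on GRCh38, and promoters by symbol from RefSeq on GRCh38.p14.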

Additional observations from a re-analysis of the deposited data

Results flagged for a closer look

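The response to myricone C differed between the lines for 3 members, by the line-by-treatment term of a fit over 12 libraries (limma, adjusted p under 0.05 over all shared genes), which is 6.67% of members against 12.7% of all shared genes. The change in SW48 minus the change in the gastric line was 0.60 for EIF4E, 0.51 for EIF4G1 and 0.47 for EIF3B on the log2 scale. In each case all 3 myricone C libraries of the gastric line lay below all 3 of its vehicle libraries, while the SW48 treatments overlapped. SW48 vehicle replicate 2 was the lowest vehicle library of SW48 for all 3 genes, and without it the differences were 0.51 for EIF4E, 0.41 for EIF4G1 and 0.38 for EIF3B, of which that of EIF4E still passed. The calls of EIF4G1 and EIF3B were each lost on leaving out any of 9 of the 12 libraries, and also without limma's mean-variance trend (0.51 and 0.47). The part of that library in the result was not tested further. Groups of 3 libraries are too small for the search for single outlying libraries used in larger groups.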

How the results depend on the processing

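Depth is unknown, so precision rests on 3 libraries per group, and small changes can be missed. Of 2250 recomputed member changes, 69 differed in sign from the reported value, and 0 of these belonged to a called member. In SW48, where 6 members rose and 4 fell, quantile normalisation gave 12 higher and 2 lower, and median-centred scaling and the replicate block each left 2 lower. Leaving out 1 SW48 library gave 6 to 12 calls, 4 to 8 higher and 2 to 5 lower; the count was 6 without myricone C replicate 2 or 3 or vehicle replicate 3. In the gastric line, where 11 rose and 12 fell, leaving out 1 library gave 18 to 25 calls, 8 to 13 higher and 10 to 12 lower. For the difference between lines, 1 member (EIF4E) passed without the trend and 0 with the replicate block. Leaving out 1 library gave 1 to 3 calls, 1 to 3 more positive and 0 to 1 more negative in SW48. The log2 ratio of the summed member signal in the gastric line, 0.036, was -0.049 without EIF1, a sum added after seeing the data. The cause of these shifts was not tested. The other settings kept each count within 1.5 times its reported value.

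The replicate numbers were not taken to pair libraries. Deviations of same-numbered myricone C and vehicle libraries correlated at -0.07, -0.18 and -0.14 in SW48 and at -0.24, 0.11 and -0.27 in the gastric line. These are the numbers of the sample titles, which the block also used. The SW48 myricone C columns of the deposited table are numbered 2 to 4, and by column number the shared pairs are titled myricone C 1 with vehicle 2 (0.15) and myricone C 2 with vehicle 3 (0.27), not fitted as a block. With the title numbers the block left 5 members higher and 2 lower in SW48 and 8 higher and 10 lower in the gastric line.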
